A study of Mus musculus with 8 samples.

Results

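The interleukin-1 (IL1) family genes described here are 5 that encode ligands (Il1a, Il1b, Il33, Il18 and the receptor antagonist Il1rn) and 5 that encode receptor chains (Il1r1, Il1r2, Il1rap, Il1rl1 and Il18rap). They were chosen by symbol, as 10 of the 18540 genes in the count table, with earlier results of these data known. Transcriptome sequencing covered mouse wound skin from 4 control samples and 4 Z1C2Z samples. Z1C2Z is the form of the ZnO2/CeO2@ZIF-8 (ZCZ) composite that holds more CeO2 relative to ZnO2, a particle of zinc peroxide and cerium dioxide in a zeolitic imidazolate framework. In the wound experiments of the study the control wounds received PBS and the composite was injected around the wound at 100 μg/kg, and the sequenced Z1C2Z tissue was taken after 15 days of treatment. The sample labels call the groups only con and shiyan, and the study's text on the sequencing calls them control and ZCZ. The name Z1C2Z was taken from matching sample numbers in the study and is not stated in that text. Samples carry the numbers 1, 2, 3 and 5 in the control group and 1, 2, 4 and 5 in the Z1C2Z group, and values are listed in that order throughout. The study used C57BL and diabetic db/db mice, and the strain and age of the sequenced mice, and whether any samples shared a mouse, are not given in the sources used here. The p-values therefore measure the spread between these samples, which may be partly technical.

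IL-1α and IL-1β act on a receptor formed by IL1R1 and the co-receptor IL1RAP, while IL-1Ra, the product of Il1rn, occupies IL1R1 without starting a signal and IL1R2 is a decoy that binds ligand but lacks the signaling domain. IL-33, which sits in the nucleus of epithelial and stromal cells and is released on damage, binds ST2, the product of Il1rl1, again with IL1RAP, and a soluble form of ST2 acts as a decoy. IL-18 uses IL18R1 with the co-receptor IL18RAP. In skin these cytokines come from keratinocytes, stromal cells and infiltrating leukocytes, and the receptors that signal lead through MYD88 and the IRAK kinases to NF-κB.

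The libraries held 28856790 to 38974888 counted reads, and all 10 genes passed the low-count filter with 15147 genes in all. Every pair of libraries of 1 group differed by more than sampling noise. On the first principal component, which carried 62.2% of the variance, Z1C2Z-5 (-0.29) lay nearest to the control samples (-62.9 to -12.2), while Z1C2Z-2 (65.7) and Z1C2Z-4 (67.7) lay farthest from them and Z1C2Z-1 lay at 28.1. Because of this spread among the treated libraries, values without Z1C2Z-2 and Z1C2Z-4 are given beside the results that rest on them. Levels are given as counts scaled to equal library size (CPM) after TMM scaling. A gene was called when edgeR's quasi-likelihood test gave an adjusted p under 0.05 over all genes tested and the absolute log2 fold change was over 1.

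The receptors Il1rl1, Il1r1 and Il18rap were lower in Z1C2Z wounds, by 6.18-fold, 2.42-fold and 2.05-fold, and these were the 3 of the 10 genes that were called. In bulk tissue, fewer cells of a type and less RNA per cell cannot be told apart. Among all 15147 genes, 1.25% were called lower and 2.15% were called higher. None of the 10 genes was called higher by edgeR or DESeq2, and 0 had a higher level at an unadjusted p under 0.05 in either. The 3 called genes were also those past the adjusted p alone, which 3.85% of all genes passed as lower and 4.28% as higher. At an unadjusted p under 0.05, 7 of the 10 were lower. The share of all genes under this unadjusted cutoff was not counted, and neither was the share of all genes called by DESeq2. Counts at this cutoff or by DESeq2, here and below, therefore cannot be compared with all genes. They do not show an excess over all genes. The 4 Z1C2Z samples lay wholly below the 4 control samples for 5 of the 10 genes (Il1b, Il1r1, Il1rap, Il1rl1 and Il18rap) and wholly above them for none, against 8.82% and 8.45% of all genes. The log2 fold change was under 0 for 9 of the 10, with Il18 the exception, and its median was -0.70 against 0.01 over all genes tested. The 5 receptor genes had a median of -1.03 and the 5 ligand genes a median of -0.31.

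The calls ended when some single libraries were left out, while the 3 called genes stayed lower in every fit. Leaving out Z1C2Z-2, Z1C2Z-4, Z1C2Z-1 or control-5 gave 0 calls by edgeR among the 10 genes, although 5, 5, 6 and 4 of them respectively had an unadjusted p under 0.05, all as lower. Without control-2 only Il1rl1 was called, without control-3 there were 2 calls, without control-1 there were 3, and without Z1C2Z-5 there were 4. With Z1C2Z-2 and Z1C2Z-4 both left out, 0 were called and 4 had an unadjusted p under 0.05. Calls over all genes were not counted in these fits, so a loss particular to these genes cannot be told from one across all genes. In the fits with 0 calls, the other IL1 family and pathway genes described below had 0 calls as well. Il1rl1, Il1r1 and the pathway genes Casp4 and Cxcl5 had the same edgeR adjusted p without Z1C2Z-1 (0.0661), Z1C2Z-2 (0.0888) or Z1C2Z-4 (0.0876). Without both Z1C2Z-2 and Z1C2Z-4 these genes shared the value 0.280. Adjustment over all genes can give several genes the same value, so such a value does not measure the weakening of each gene. Within the treated group, Z1C2Z-5 had the highest level of 9 of the 10 genes, where it was the highest for 24.4% of all genes. Z1C2Z-2 and Z1C2Z-4 had the 2 lowest levels for 7 of the 10, against 31.7% of all genes.

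**Figure D1:**
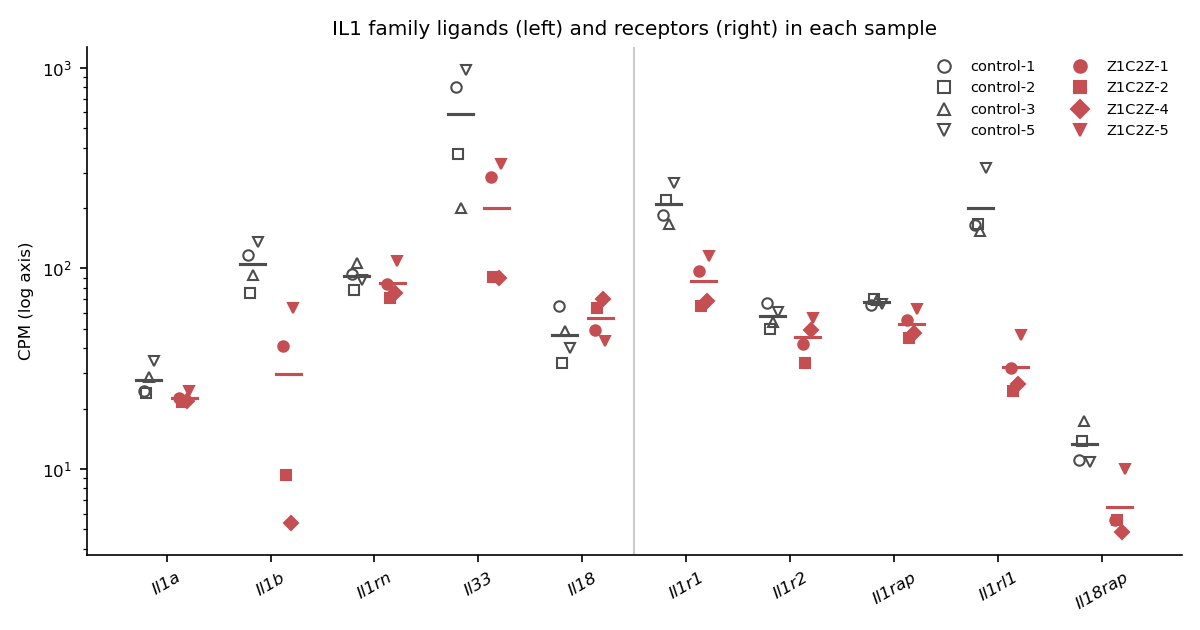
The plot gives the level of each of the 10 genes in each of the 8 samples as CPM on a log axis, with control samples as open symbols, Z1C2Z samples as filled symbols and a bar at each group mean (n = 4). Il1rl1 lay between 154 and 315 CPM in control and between 24.5 and 46.7 CPM in Z1C2Z, whereas the groups overlapped for Il1a, Il1rn, Il1r2, Il33 and Il18.

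Among the ligands, Il1b (Entrez 16176), which encodes IL-1β, the form made mainly by activated myeloid cells, had 116, 75.3, 93.1 and 135 CPM in the control samples. In the Z1C2Z samples it had 41.2, 9.30, 5.37 and 63.8 CPM. All treated samples lay below all control samples, but the treated samples differed from each other 11.9-fold, with Z1C2Z-2 and Z1C2Z-4 far below the others. Its log2 fold change was -1.81 (SE 0.67) with an edgeR adjusted p of 0.119, and the exact two-sided permutation test gave 0.0286, the smallest p that 4 samples against 4 allow. The adjusted p of edgeR was 0.0436 without Z1C2Z-5 (log2 fold change -2.50) and 0.280 without Z1C2Z-2 and Z1C2Z-4 (-1.0).

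Il1a (Entrez 16175) encodes IL-1α, which keratinocytes store and release when they are damaged. Its level was 24.5, 24.0, 28.9 and 34.4 CPM in the control samples and 22.6, 21.6, 21.8 and 24.5 CPM in the Z1C2Z samples. The groups met at their edges, with Z1C2Z-5 above control-2. For Il1a the log2 fold change was -0.31 (SE 0.13, edgeR adjusted p = 0.154, exact permutation p = 0.0571).

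Il1rn (Entrez 16181), the antagonist gene, had 93.3, 78.4, 106 and 87.1 CPM in control and 83.4, 71.0, 75.7 and 109 CPM in Z1C2Z. The highest and the lowest of the 8 values were both in treated samples. Its log2 fold change was -0.11 (SE 0.15, edgeR adjusted p = 0.672), so no difference was detectable beyond the spread between samples, and the sign was positive (0.07) without Z1C2Z-2 and Z1C2Z-4.

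Il33 (Entrez 77125), the ST2 ligand, varied most among the control samples, at 805, 373, 200 and 973 CPM. The Z1C2Z samples had 286, 90.5, 89.8 and 332 CPM. Z1C2Z-1 and Z1C2Z-5 exceeded control-3, and Z1C2Z-2 and Z1C2Z-4 lay below every control sample. For Il33 the log2 fold change was -1.56 (SE 0.59) with an edgeR adjusted p of 0.123 and an exact permutation p of 0.114. It was -0.93 (edgeR adjusted p = 0.540) without Z1C2Z-2 and Z1C2Z-4.

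Il18 (Entrez 16173), whose product is made as a precursor in epithelial cells and macrophages, had 64.9, 33.7, 48.5 and 39.9 CPM in control and 49.5, 63.3, 70 and 43.5 CPM in Z1C2Z. The ranges overlapped over most of their length. For Il18 the log2 fold change was 0.27 (SE 0.22, edgeR adjusted p = 0.441), and without Z1C2Z-2 and Z1C2Z-4 it was -0.01.

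Among the receptors, Il1rl1 (Entrez 17082), the gene of ST2, showed the largest difference of the 10 genes. It had 165, 166, 154 and 315 CPM in the control samples, from 4643, 5981, 5580 and 11189 counts. The Z1C2Z samples had 31.7, 24.5, 26.4 and 46.7 CPM, from 1125, 947, 1052 and 1685 counts. The lowest control sample was above the highest treated sample by a wide margin, and control-5 stood well above the other control samples. The level fell from 200 ± 77 to 32.3 ± 10.1 CPM (SD, n = 4), a difference of -2.63 on the log2 scale (SE 0.29, edgeR adjusted p = 0.0232, exact permutation p = 0.0286). No gene in the table had a smaller adjusted p, but this value was shared with Casp4. Without control-5 the log2 fold change was -2.32 (edgeR adjusted p = 0.0584), and without Z1C2Z-2 and Z1C2Z-4 it was -2.35 (0.280). Without Z1C2Z-1, Z1C2Z-2 or Z1C2Z-4 alone it was -2.61, -2.52 and -2.55, with edgeR adjusted p of 0.0661, 0.0888 and 0.0876. The counts are per gene, so the membrane and the soluble form of ST2 cannot be told apart.

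Il1r1 (Entrez 16177), the signaling receptor for both forms of IL-1, had 185, 220, 166 and 266 CPM in control and 97.0, 65.1, 68.9 and 115 CPM in Z1C2Z. No treated sample reached the lowest control sample, and control-5 was again the highest. The level fell from 209 ± 43.9 to 86.5 ± 23.7 CPM (SD, n = 4), or -1.28 on the log2 scale (SE 0.21, edgeR adjusted p = 0.0299, exact permutation p = 0.0286). Left out singly, control-2 (-1.25, edgeR adjusted p = 0.0535) and control-5 (-1.14, 0.0768) each ended the call. So did Z1C2Z-1 (-1.33, edgeR adjusted p = 0.0661), Z1C2Z-2 (-1.16, 0.0888) and Z1C2Z-4 (-1.18, 0.0876). Without Z1C2Z-2 and Z1C2Z-4 the log2 fold change was -0.98 (edgeR adjusted p = 0.280).

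Il18rap (Entrez 16174), the co-receptor chain that IL-18 needs to signal, had the lowest level of the 10 genes per kilobase of exon. It had 11.1, 13.8, 17.3 and 10.9 CPM in control and 5.56, 5.57, 4.85 and 10 CPM in Z1C2Z. Z1C2Z-5 came close to control-5 without reaching it, and the other treated samples lay together well below. The level fell from 13.3 ± 3.01 to 6.5 ± 2.37 CPM (SD, n = 4), or -1.03 on the log2 scale (SE 0.25, edgeR adjusted p = 0.0428, exact permutation p = 0.0286). This call was the closest to the thresholds, and it was lost without control-2 (-1.02, edgeR adjusted p = 0.0882), control-3 (-0.88, 0.0811) or control-5 (-1.12, 0.0883). It was also lost without Z1C2Z-1 (-0.96, edgeR adjusted p = 0.0914), Z1C2Z-2 (-0.97, 0.129) or Z1C2Z-4 (-0.92, 0.121). Without Z1C2Z-2 and Z1C2Z-4 the log2 fold change was -0.77 (edgeR adjusted p = 0.362).

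Il1rap (Entrez 16180), the co-receptor shared by IL-1 and IL-33, was even across the control samples at 65.9, 70.2, 69.8 and 66.5 CPM. The Z1C2Z samples had 55.1, 45.0, 47.9 and 62.5 CPM. The groups did not overlap, but the difference was small, with a log2 fold change of -0.37 (SE 0.11, edgeR adjusted p = 0.0681, exact permutation p = 0.0286). DESeq2 gave an adjusted p of 0.0242, and edgeR gave 0.0247 without Z1C2Z-5 (log2 fold change -0.47).

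Il1r2 (Entrez 16178), the decoy receptor, had 67.0, 49.9, 53.8 and 60.7 CPM in control and 42.1, 33.6, 49.4 and 56.9 CPM in Z1C2Z. Z1C2Z-5 lay among the control samples, and Z1C2Z-4 just below the lowest of them. The log2 fold change was -0.35 (SE 0.16, edgeR adjusted p = 0.206, exact permutation p = 0.114). Over the 14 alternative fits it lay between -0.47 and -0.22 and did not pass the threshold in any.

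The sequences around the transcription starts of the 3 called receptor genes are shown because these genes were lower together and lie in a single cluster on chromosome 1. They run from 250 bases before to 50 bases after each start in the RefSeq annotation of GRCm38.p6, all on the plus strand. The Il1r1 promoters are at chr1:40224830-40225129 and chr1:40266336-40266635, the Il1rl1 promoters at chr1:40429320-40429619 and chr1:40439379-40439678, and the Il18rap promoter at chr1:40515112-40515411. Capitals mark matches, on either strand, to an AP-1 motif (TGANTCA), the NF-kappa B motif or a GATA motif (AGATAA), and no match overlapped another.
Il1r1 promoter 1: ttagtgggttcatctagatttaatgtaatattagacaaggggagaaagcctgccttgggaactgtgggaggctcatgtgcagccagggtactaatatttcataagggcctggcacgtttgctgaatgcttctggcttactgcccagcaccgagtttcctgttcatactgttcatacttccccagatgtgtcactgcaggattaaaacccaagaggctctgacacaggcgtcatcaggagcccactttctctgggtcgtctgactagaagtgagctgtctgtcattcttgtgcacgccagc
Il1r1 promoter 2: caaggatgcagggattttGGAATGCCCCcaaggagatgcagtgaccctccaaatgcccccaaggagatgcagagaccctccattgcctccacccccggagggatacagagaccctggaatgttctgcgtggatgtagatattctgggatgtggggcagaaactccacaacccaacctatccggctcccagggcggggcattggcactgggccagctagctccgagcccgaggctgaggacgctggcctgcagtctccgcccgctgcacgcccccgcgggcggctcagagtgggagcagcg
Il1rl1 promoter 1: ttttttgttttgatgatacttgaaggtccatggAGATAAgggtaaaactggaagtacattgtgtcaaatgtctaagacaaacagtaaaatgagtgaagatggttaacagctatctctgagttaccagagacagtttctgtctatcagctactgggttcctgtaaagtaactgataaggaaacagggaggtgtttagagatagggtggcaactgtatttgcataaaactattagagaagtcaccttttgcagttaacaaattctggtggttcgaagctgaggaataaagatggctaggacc
Il1rl1 promoter 2: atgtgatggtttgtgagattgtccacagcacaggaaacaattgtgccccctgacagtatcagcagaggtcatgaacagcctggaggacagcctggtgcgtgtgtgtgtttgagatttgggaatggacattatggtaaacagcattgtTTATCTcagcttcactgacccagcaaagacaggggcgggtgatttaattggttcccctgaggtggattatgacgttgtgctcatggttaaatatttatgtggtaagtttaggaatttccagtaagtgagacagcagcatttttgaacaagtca
Il18rap promoter 1: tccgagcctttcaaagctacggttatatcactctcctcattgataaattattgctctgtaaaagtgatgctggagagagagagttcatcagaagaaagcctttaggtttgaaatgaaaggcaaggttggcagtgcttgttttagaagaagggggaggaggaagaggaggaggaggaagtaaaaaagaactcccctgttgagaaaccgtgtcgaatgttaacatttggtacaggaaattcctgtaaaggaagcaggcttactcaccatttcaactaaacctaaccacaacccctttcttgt

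The capitals in Il1r1 promoter 2 are an NF-kappa B match on the minus strand, starting at position -232 from the start site, and the capitals in the Il1rl1 promoters are GATA matches at -217 and -103. Il1r1 promoter 1 and the Il18rap promoter held none of the 3 motifs. RefSeq promoters were found for all 10 genes, 15 in all, and the only other matches were AP-1 motifs in the Il1a promoter (-12) and in 1 of the Il1rn promoters (-141). Of 32851 RefSeq promoters of this length, 7.81% held the AP-1 motif, 8.46% the NF-kappa B motif and 11.2% the GATA motif. A match of letters describes the sequence and does not show that a factor bound there. The counts do not say which start was used.

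The receptor genes of chromosome 1 stand in the order Il1r2, Il1r1, Il1rl2, Il1rl1, Il18r1 and Il18rap, and their log2 fold changes did not follow that order. Along the cluster the values were -0.35, -1.28, -0.47, -2.63, 0.07 and -1.03. Il1rl1, with the largest fall, thus lies next to Il18r1, whose level did not differ detectably (SE 0.16, edgeR adjusted p = 0.804), and Il18r1 in turn lies between Il1rl1 and Il18rap. The 2 chains of the IL-18 receptor therefore had unlike values, since Il18rap passed the test as lower and Il18r1 had 190 to 292 counts in control and 251 to 292 counts in Z1C2Z. The difference between neighbours was not tested. On chromosome 2, Il1a and Il1b are next to each other and had log2 fold changes of -0.31 and -1.81.

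Levels of different genes were compared per kilobase of annotated exon, which holds all isoforms and so understates genes with long alternative ends. In control samples Il33 was the highest on this scale at 204 ± 125 CPM per kb (SD, n = 4), followed by Il1b (54.9 ± 13.6) and Il18 (45.4 ± 13.1). Il1r1, Il1r2 and Il1rl1 followed at 32.9, 30.3 and 29.0 CPM per kb, then Il1rn (16.5), Il1a (14.2), Il1rap (5.99) and Il18rap (1.97). Neighbours in this order overlapped except Il1rl1 and Il1rn, Il1a and Il1rap, and Il1rap and Il18rap. In Z1C2Z samples Il33 (69.2 ± 44.2) and Il18 (54.9 ± 11.8) were the highest and overlapped, and Il18 was above all Il1r2 samples (23.9 ± 5.24). Il1b (15.7), Il1rn (15.3), Il1r1 (13.6) and Il1a (11.5) then formed a run in which each overlapped the next. Il1rl1 dropped to the eighth place at 4.69 ± 1.46 CPM per kb, beside its co-receptor Il1rap at 4.63 ± 0.691, and Il18rap stayed lowest at 0.962 ± 0.351.

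Ratios of counts within a library were compared for 5 pairs, since they do not depend on library size. A ratio of counts is not a ratio of molecules, because the genes differ in length. The antagonist to ligand ratio Il1rn to Il1b was 0.804, 1.04, 1.14 and 0.647 in the control samples and 2.02, 7.62, 14.0 and 1.71 in the Z1C2Z samples. Antagonist reads were about as many as Il1b reads in control wounds and outnumbered them in every treated sample. The log2 ratio was higher by 2.31 in Z1C2Z (exact two-sided permutation p = 0.0286, adjusted over the 5 ratios p = 0.0476). Without Z1C2Z-2 and Z1C2Z-4 the difference was 1.07, with no test. Il1rn itself did not differ detectably (log2 fold change -0.11). The ratio therefore mostly restates the difference in Il1b, which did not pass edgeR's test (adjusted p = 0.119), and is not independent of it.

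The ratio of Il1b to Il1a was 4.74, 3.14, 3.22 and 3.91 in control and 1.82, 0.432, 0.247 and 2.61 in Z1C2Z. Il1b thus outnumbered Il1a in every control sample, and in Z1C2Z-2 and Z1C2Z-4 the order was turned. The log2 difference was -2.13 (exact permutation p = 0.0286, adjusted p = 0.0476), and -0.76 without these libraries. It shares Il1b with the ratio above and is not independent of it. Il1rn to Il1a, at 2.53 to 3.81 in control and 3.29 to 4.45 in Z1C2Z, differed by 0.17 on the log2 scale (exact permutation p = 0.371, adjusted p = 0.371).

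The ratio of the decoy to the signaling receptor, Il1r2 to Il1r1, was 0.362, 0.227, 0.324 and 0.228 in control and 0.434, 0.516, 0.717 and 0.495 in Z1C2Z. Every treated sample had relatively more decoy reads than every control sample. Il1r2 itself was not higher (log2 fold change -0.35), and the ratio shares Il1r1 with the call of that gene and is not independent of it. The log2 ratio was higher by 0.93 (exact permutation p = 0.0286, adjusted p = 0.0476), and by 0.73 without Z1C2Z-2 and Z1C2Z-4. Il33 to Il1rl1 was 4.88, 2.24, 1.30 and 3.09 in control and 9.03, 3.69, 3.40 and 7.10 in Z1C2Z, which overlapped (log2 difference 1.05, exact permutation p = 0.114, adjusted p = 0.143). For the 3 ratios whose groups did not overlap, the adjusted p of the exact permutation test rose to 0.107 without control-1 and to 0.143 without any other control sample. Without Z1C2Z-4 it was 0.0952 for Il1r2 to Il1r1 and 0.0714 for the other two.

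**Figure D2:**
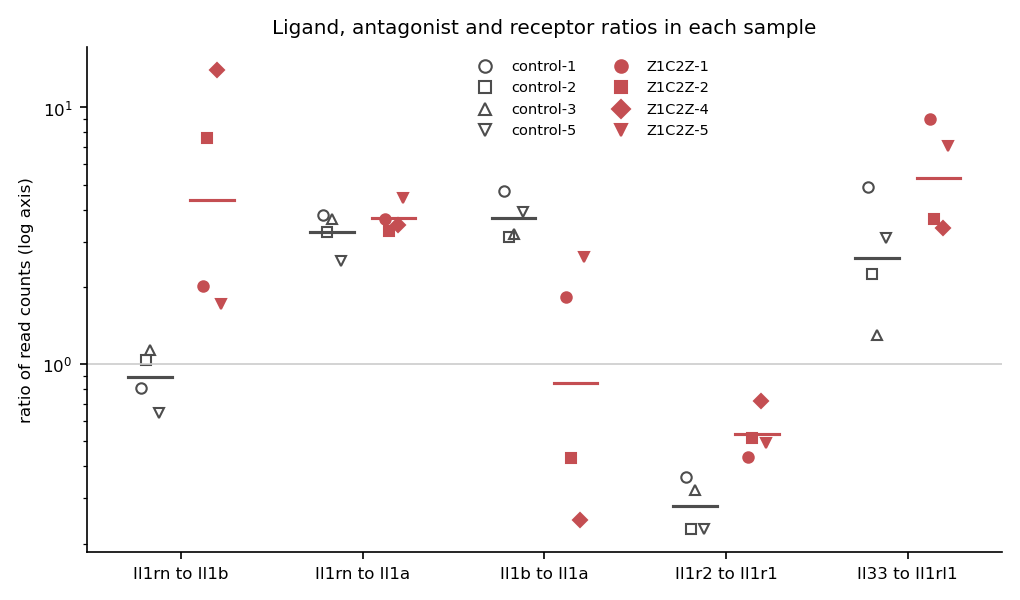
The plot gives 5 ratios of read counts in each sample on a log axis, with control samples open, Z1C2Z samples filled and a bar at each group's mean on the log scale (n = 4). Il1rn to Il1b and Il1r2 to Il1r1 were higher and Il1b to Il1a lower in every Z1C2Z sample than in any control sample, while the other 2 ratios overlapped.

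The rest of the IL1 family was followed as a list of 11 genes, of which 9 were tested and 1 was called, as higher. This was Il1f10, the gene of IL-38, with 26, 20, 60 and 12 counts in control and 134, 435, 401 and 46 counts in Z1C2Z. The groups overlapped, since Z1C2Z-5 lay below control-3. The log2 fold change was 2.92 (SE 0.71, edgeR adjusted p = 0.0420), at a low level of 0.867 CPM on average in control. The call was lost without control-1 (edgeR adjusted p = 0.0598), control-2 (0.0947) or control-5 (0.113), and without Z1C2Z-1 (0.0698), Z1C2Z-2 (0.119) or Z1C2Z-4 (0.118). Without Z1C2Z-2 and Z1C2Z-4 the log2 fold change was 1.54 (edgeR adjusted p = 0.386). The genes of the hair follicle, listed further on, were likewise lowest in Z1C2Z-5 among the treated samples.

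The IL-36 cytokines, which act in the epidermis, are named in the table by their older symbols. The log2 fold changes were 0.45 for Il1f6 (IL-36α), -0.01 for Il1f8 (IL-36β), -0.01 for Il1f9 (IL-36γ) and 0.24 for Il1f5 (the IL-36 receptor antagonist), and none passed the threshold. Their receptor Il1rl2 was at -0.47 (SE 0.15, edgeR adjusted p = 0.0786), with the treated samples (75.1 to 117 CPM) below the control samples (123 to 146 CPM). DESeq2 gave an adjusted p of 0.0271 for Il1rl2, and edgeR gave 0.0396 without Z1C2Z-5. Il18bp, which encodes the soluble binding protein of IL-18, was at -0.70 (edgeR adjusted p = 0.253), with 583 counts in control-3 against 130 to 216 in the other 7 samples. Sigirr, an inhibitory receptor, had a value of 0.07. Il1rapl1 and Il1rapl2, receptors of neurons, had at most 1 count in any sample and were not tested.

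**Figure D3:**
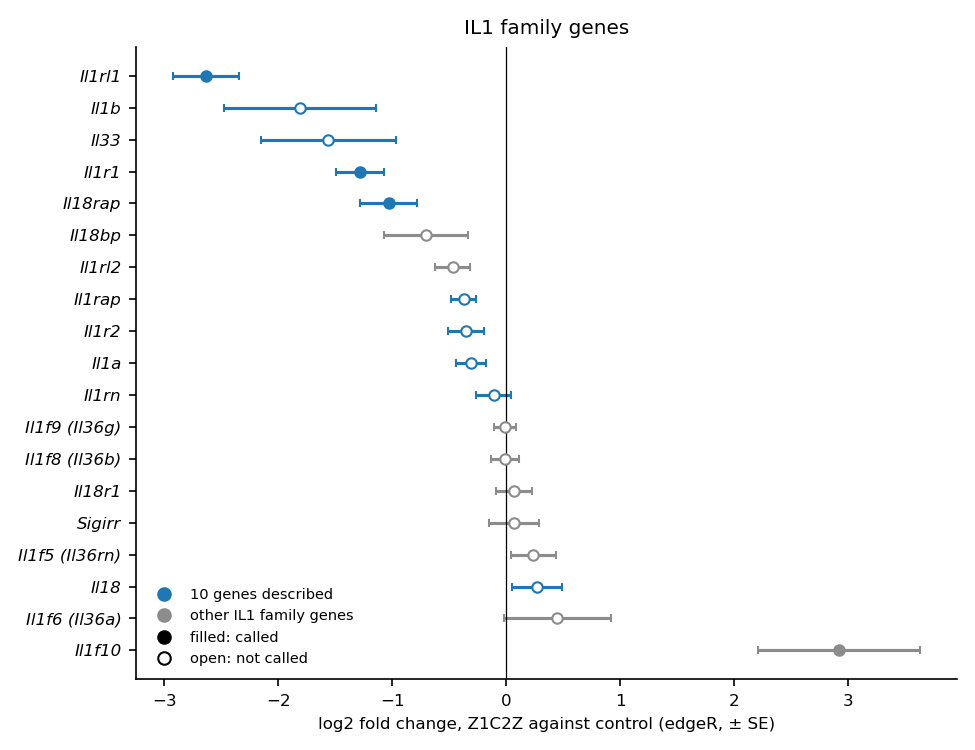
The plot gives the log2 fold change of Z1C2Z against control with its standard error for the 10 genes (blue) and the 9 other IL1 family genes tested (grey), with called genes filled. Il1rl1 (-2.63), Il1r1 (-1.28) and Il18rap (-1.03) were called lower and Il1f10 (2.92) was called higher.

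Downstream of the receptors, 0 of 22 signaling genes were called by edgeR, beside 1.25% of all genes called lower. The median log2 fold change of the 22 was -0.13. DESeq2 called 1, and 9 were lower and 1 higher at an unadjusted p under 0.05 in edgeR. Treated samples lay wholly below control for 9 of the 22 and wholly above for 2, against 8.82% and 8.45% of all genes. The largest falls, of Tnfaip3 (-1.73, edgeR adjusted p = 0.0529) and Nfkbia (-0.97, 0.0568), did not pass the threshold. Past the adjusted p alone, 4 were lower by less than the fold threshold. They were Nfkb1 (-0.57, adjusted p = 0.0470), Rela (-0.46, 0.0498), the adaptor Myd88 (-0.43, 0.0419) and Irak3 (-0.60, 0.0449), which encodes a kinase-like inhibitor of the pathway. The highest mean CPM of the list belonged to Tab2, Nfkb1 and Tollip. Tab2, an adaptor of the kinase TAK1, was level at 181 ± 2.18 CPM in control and 181 ± 12.8 CPM in Z1C2Z (SD, n = 4), and Tollip was at -0.27 on the log2 scale (edgeR adjusted p = 0.136).

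Of 17 tested genes for the maturation of these cytokines, 1 was called, and it was lower. Casp4, which encodes the inflammatory caspase-11 of the mouse, had 41.7, 28.9, 41.7 and 45.0 CPM in control and 14.2, 13.1, 12.9 and 18.9 CPM in Z1C2Z. The groups were far apart, and the log2 fold change was -1.41 (SE 0.17, edgeR adjusted p = 0.0232). Without Z1C2Z-1, Z1C2Z-2, Z1C2Z-4 or control-5 the edgeR adjusted p was 0.0661, 0.0888, 0.0876 and 0.0638, with log2 fold changes between -1.39 and -1.34. Leaving out Z1C2Z-2 and Z1C2Z-4 together gave -1.25 (edgeR adjusted p = 0.280). Past the adjusted p alone, Capn2, a calpain, was lower (-0.45, edgeR adjusted p = 0.0488) and Pycard, the inflammasome adaptor ASC, was higher (0.51, edgeR adjusted p = 0.0411). Nek7 and Capn1, also among the highest of the list in mean CPM, had log2 fold changes of 0.02 and 0.08. The median of the list was -0.23.

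Genes that IL-1 is known to induce formed the pathway list with the most calls, 9 of 17 tested, all lower, beside 1.25% of all genes called lower. The median log2 fold change of the list was -2.46. These genes also respond to other signals such as TNF and IL-17, and the list was chosen with earlier results of these data known. The called genes were the chemokines Cxcl1 (-5.72) and Cxcl5 (-3.61), the cytokines Il6 (-5.51) and Csf3 (-4.32), the prostaglandin enzymes Ptgs2 (-4.22) and Ptges (-1.0), the endothelial adhesion gene Sele (-3.22), the iron-binding lipocalin Lcn2 (-2.18) and the NF-κB cofactor Nfkbiz (-1.05). Their edgeR adjusted p lay between 0.0299 and 0.0494. Ptges passed the fold threshold only before rounding. The count of called genes was 0 without Z1C2Z-1, Z1C2Z-2, Z1C2Z-4 or control-5, with 14 or 15 of the 17 lower at an unadjusted p under 0.05 in edgeR, 3 without control-2 and 12 without control-3. It was also 0 without Z1C2Z-2 and Z1C2Z-4 together, with 14 of 18 lower at an unadjusted p under 0.05 in edgeR, and DESeq2 called 14 of 18 with all samples. Icam1, another adhesion gene, passed the adjusted p alone (-0.84, edgeR adjusted p = 0.0299). With all samples, 15 of the 17 were lower and 1 was higher at an unadjusted p under 0.05 in edgeR. The higher gene was Ccl20, a chemokine gene (0.58, edgeR adjusted p = 0.177), whose groups overlapped.

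The size of these falls rested partly on some of the control samples. Cxcl1 had 257, 6.22, 11.1 and 309 CPM in control and 3.36, 2.25, 2.28 and 3.19 CPM in Z1C2Z, so control-1 and control-5 carried most of the mean. Il6 had 174, 5.19, 7.49 and 150 CPM in control and 1.97, 1.24, 0.728 and 3.47 CPM in Z1C2Z. Ptgs2 had 537, 44.5, 34.6 and 776 CPM in control and 29.2, 8.08, 5.72 and 31.6 CPM in Z1C2Z. In all 3 of these genes control-1 and control-5 stood apart from control-2 and control-3, and all treated samples were still below the latter. Without control-5 the log2 fold change of Cxcl1 was -5.02 (edgeR adjusted p = 0.0865) and that of Ptgs2 was -3.44 (0.125). Il33 and Il1b also had their highest control values in control-1 and control-5, whereas Il1rn, Il1rap and Il18rap did not. Mmp3, a stromal protease gene, and Saa3, an acute-phase gene, had the highest mean CPM of the list and had log2 fold changes of -0.86 (edgeR adjusted p = 0.0892) and -2.46 (0.116).

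Of 9 genes linked to IL-33 and IL-18 responses, 4 were tested and 1 was called lower. This was Csf2rb, the shared receptor chain for IL-3, IL-5 and GM-CSF, at 57.8, 79.3, 82.0 and 88.9 CPM in control and 39.1, 25.1, 21.6 and 57.2 CPM in Z1C2Z. Z1C2Z-5 lay just under control-1, and the log2 fold change was -1.11 (SE 0.29, edgeR adjusted p = 0.0497). This call ended without control-2 (edgeR adjusted p = 0.0952), control-3 (0.0880) or control-5 (0.133), and without Z1C2Z-1 (0.0879), Z1C2Z-2 (0.140) or Z1C2Z-4 (0.121). With Z1C2Z-2 and Z1C2Z-4 both left out, its log2 fold change was -0.68 (edgeR adjusted p = 0.320). RLE factors (0.0501) and a filter of at least 10 counts in every sample (0.0502) also took the edgeR adjusted p past the threshold. Areg, the gene of amphiregulin, was at -1.43 on the log2 scale (edgeR adjusted p = 0.104) and Ccl24, an eosinophil chemokine, -2.56 (edgeR adjusted p = 0.138), and both overlapped. The other 5 genes of the list, among them Il5 and Il13, had too few counts to be tested.

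**Figure D4:**
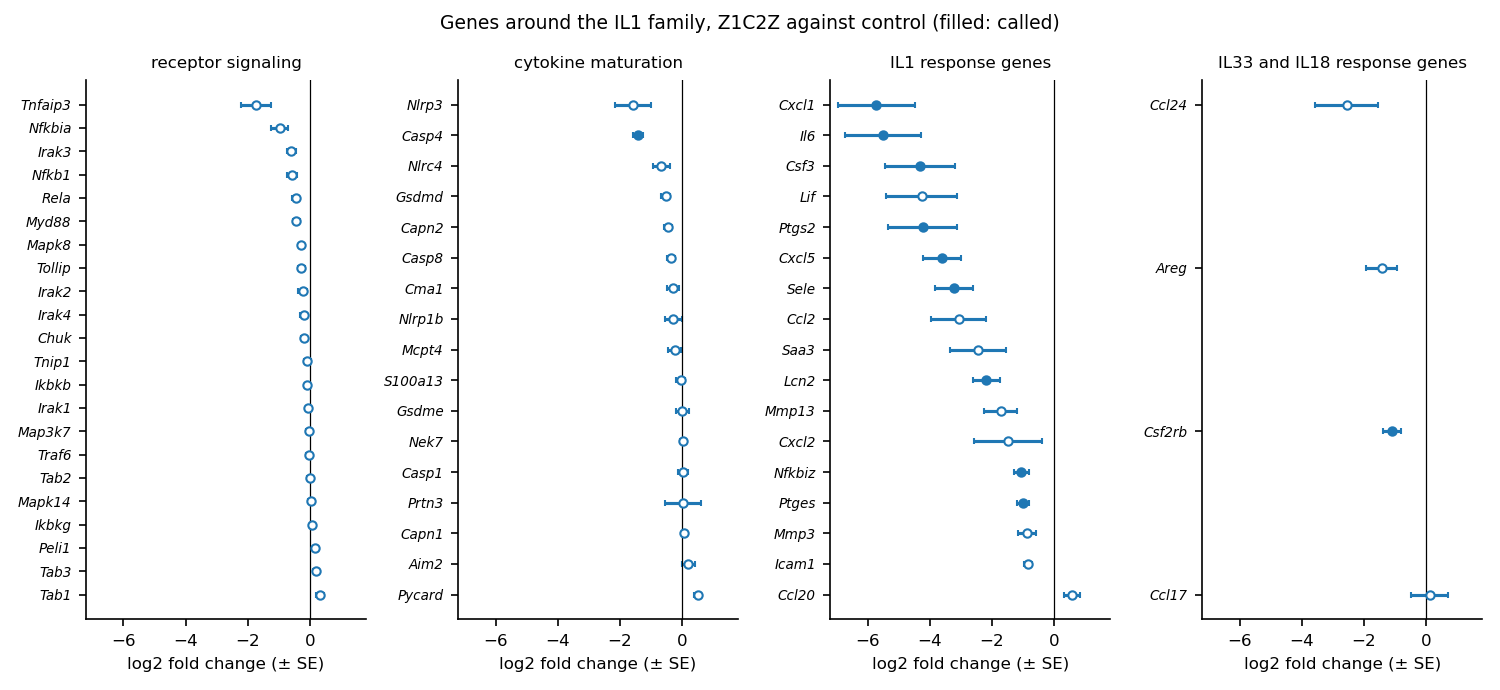
The plot gives log2 fold changes with standard errors for the tested genes of 4 lists, with called genes filled. Of the 17 IL1 response genes 9 were called lower, and 0 of the 22 receptor signaling genes were called, beside 1.25% of all genes called lower.

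Marker lists of the cell types that the tissue could hold were summed as CPM in each sample. Markers of neutrophils, which make Il1b and carry Il1r2, summed to 572 to 1510 CPM in control and 169 to 655 CPM in Z1C2Z, with 0 of 8 tested genes called by edgeR, 3 lower at an unadjusted p under 0.05 and 2 of 10 called lower by DESeq2. The defining marker Ly6g had 0 to 6 counts per sample. Macrophage markers summed to 2520 to 2970 CPM in control and 1520 to 2580 CPM in Z1C2Z, with Z1C2Z-2 (1910) and Z1C2Z-4 (1520), the libraries lowest in Il1b, also the lowest here. These 2 were also the lowest treated libraries for neutrophil (393 and 169 CPM), fibroblast (43500 and 43100) and endothelial (265 and 247) markers. They were not the lowest pair for the other marker lists. Markers of mast cells, known for high Il1rl1, summed to 203 to 278 CPM and 176 to 216 CPM, and none of these 8 genes was called by edgeR or DESeq2, with 1 lower at an unadjusted p under 0.05. Of 8 macrophage markers 0 were called by edgeR or DESeq2, with 3 lower at an unadjusted p under 0.05. T cell markers summed to 33.6 to 59.4 CPM and 34.1 to 53.6 CPM. Markers of type 2 lymphoid cells, which also bear ST2, were higher in every treated sample (82.0 to 121 CPM against 43.1 to 75.9 CPM), but Gata3, which skin epithelium also expresses, supplied nearly all of this sum (51.5 CPM on average in control and 95.2 CPM in Z1C2Z). Klrg1 averaged 1.33 CPM in control and 1.58 CPM in Z1C2Z, Il17rb 1.24 and 2.5 CPM, and Il9r 0.331 and 0.559 CPM. The defining cytokine genes Il5 and Il13 had at most 10 counts in any sample. Of 4 tested genes of this list, 2 were higher at an unadjusted p under 0.05 in edgeR, 1 was higher past the adjusted p and 0 were called. Their median log2 fold change was 0.81. These markers were named after their values were seen.

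Fibroblast markers summed to 54800 to 78000 CPM in control and 43100 to 60500 CPM in Z1C2Z, and endothelial markers to 287 to 783 CPM and 247 to 474 CPM, both overlapping. Stromal cells of these types can bear Il1r1 and Il1rl1. All 6 fibroblast markers were lower at an unadjusted p under 0.05, 2 of them past the edgeR adjusted p and 0 past the fold threshold as well, with a median log2 fold change of -0.55. Of 5 endothelial markers 3 were lower at an unadjusted p under 0.05 in edgeR and 4 in DESeq2, with 0 called by either and a median of -0.72. Skeletal muscle markers were lower in every treated sample (2620 to 3040 CPM against 3260 to 5890 CPM). Of these 8 genes, 6 were lower at an unadjusted p under 0.05 and 2 were lower past the edgeR adjusted p, with 0 called by edgeR or DESeq2. Hair follicle markers were higher in every treated sample (4360 to 15000 CPM against 583 to 3570 CPM), with 9 of 10 genes called higher by edgeR and Z1C2Z-5 the lowest of the treated samples. Basal keratinocyte markers summed to 4310 to 6930 CPM and 4480 to 5660 CPM, suprabasal markers to 5730 to 10100 CPM and 9270 to 13700 CPM, and adipocyte markers to 435 to 511 CPM and 329 to 674 CPM. The skin markers were thus present in all samples, as the tissue label says. The part of these shifts in the levels of the IL1 family genes was not tested.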

How the data were processed

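The authors deposited raw read counts per gene for 8 samples, without normalization, in 1 table that also held annotation. Ribosomal RNA was depleted and the second cDNA strand marked with dUTP, per the labels. The aligner, counter, build and strand setting are not given in the sources used here. In R 4.3.3, edgeR 4.0.16 (filterByExpr, TMM, quasi-likelihood test, Benjamini-Hochberg over 15147 genes) was fitted to all samples without covariates. CPM and log2 CPM (prior count 2), exact permutation tests over 70 arrangements and ratios of counts (pseudocount 0.5) were computed in Python 3.11.15. Exon lengths came from GENCODE and promoters from RefSeq. Alternatives were DESeq2 1.42.0, RLE factors, other low-count filters (none, or 10 counts in every sample), a replicate block, other pseudocounts and leaving out samples. The members and lists were chosen with earlier results of these data known. The text names all 10 genes, the tested other IL1 family genes, called genes and the 3 with the highest mean CPM of each pathway list, and defining markers with few counts. Genes past the adjusted p alone, the type 2 lymphoid markers, Tnfaip3, Nfkbia and Ccl20 were named after their values were seen. The edgeR fit was tested on simulated counts that had the same dispersion for all genes. The table held 0 unused sample columns.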

Additional observations from a re-analysis of the deposited data

Results flagged for a closer look

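Il1rl1 in the control group had 1 sample far from the others. On the log2 CPM scale the gap between control-5 and its nearest neighbour took a share of 0.893 of the group's whole range, above Dixon's critical value for 4 samples. This was the only such gap among 30 groups of values examined, and about 1 group in 20 would be marked by chance. Without control-5 the other control samples still lay at 154 to 166 CPM against 24.5 to 46.7 CPM in the Z1C2Z samples.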

How the results depend on the processing

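Against 3 of the 10 genes called lower, RLE factors, DESeq2, no low-count filter and at least 10 counts in every sample each gave 3, and the count past the adjusted p alone was 3 or 4. Without Z1C2Z-2 and Z1C2Z-4 both counts were 0, the other IL1 family and pathway genes had 0 called lower and 0 called higher in place of 11 and 1, and the log2 differences were 1.07 for Il1rn to Il1b and -0.76 for Il1b to Il1a. DESeq2 called 17 of the pathway genes lower. With each sample left out in turn, the called genes ranged from 0 to 4, those past the adjusted p alone from 0 to 5, the pathway genes from 0 to 15 lower and 0 to 1 higher, and the log2 differences from 1.75 to 2.76 for Il1rn to Il1b, -2.67 to -1.54 for Il1b to Il1a and 0.78 to 1.05 for Il1r2 to Il1r1. Leaving out samples also leaves fewer of them, and other causes were not tested.

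The directions of Il1rl1, Il1r1, Il18rap, Il1b and Il33 held in all 14 alternative fits. Directions that turned belonged to genes that did not pass the threshold. Without Z1C2Z-2 and Z1C2Z-4 the log2 fold changes were 0.07 for Il1rn, -0.01 for Il18, -0.06 for Il1f5, -0.51 for Il1f6 and -0.06 for Sigirr. With single samples left out they ranged from -0.04 to 0.16 for Il18r1, -0.09 to 0.06 for Il1f8, -0.06 to 0.07 for Il1f9 and -0.07 to 0.20 for Sigirr.

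The replicate numbers 1, 2 and 5 occur in both groups, but same-numbered samples deviated together with correlations of -0.101, -0.0623 and 0.323, so the numbers were not taken as a pairing. With the number as a block, 4 genes were called lower, since Il1b (-1.84, adjusted p = 0.0442) and Il33 (-1.69, 0.00519) passed edgeR's test and Il18rap (-0.81, 0.185) did not. Under the block Il1rn was at 0.00 and Sigirr at -0.01, while Il1rl1 (-2.63) and Il1r1 (-1.30) stayed called. Of the pathway genes, Csf2rb (-0.95, adjusted p = 0.0932) and Cxcl1 (-5.09, 0.0620) lost edgeR's call under the block.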
